A study of Homo sapiens with 6 samples.

Results

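The genes described are 10 members of the JmjC family of histone demethylases, KDM2A, KDM2B, KDM3A, KDM3B, KDM4B, KDM4C, KDM5B, KDM6B, JMJD6 and JMJD1C. They were taken by symbol from the deposited gene table, in which each matched 1 of 28395 genes. RNA-seq was performed in wild-type A375, an established line of human melanoma cells, after 6 h with 0.01% olive oil (OLO) or 0.01% ozonated olive oil (OZO), with 3 libraries per group. Both groups received oil, and untreated cells are not part of these libraries. The values given are the authors' means over all 6 libraries, so each combines OLO-treated and OZO-treated cells. The authors' own comparison of OZO with OLO was not used, single libraries were not analysed here, and no difference between the groups is given for any gene. The spread between libraries is therefore unknown here.

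JmjC demethylases remove methyl groups from lysines of histone tails. They are dioxygenases that consume molecular oxygen and 2-oxoglutarate and need ferrous iron in the active site, so their activity can fall when oxygen or iron is scarce. Several of their genes are also induced by the hypoxia-inducible factors (HIF), the transcription factors that accumulate in low oxygen. By general knowledge, KDM3A, KDM4B, KDM4C and KDM5B were taken as the 4 HIF targets among the members, and the 6 others were set beside them. A wider reading that adds KDM2B, KDM6B and JMJD1C gives 7 HIF targets. The family name is broader than the activity of each protein, because JMJD6 is best known as a lysyl hydroxylase and demethylation by JMJD1C is less well established.

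HIF proteins bind DNA at a short core motif, and the promoters of the 4 HIF targets are shown with its matches. The grouping itself came from general knowledge and not from these sequences. Each is the RefSeq promoter (GRCh38.p14) at the start of the gene's Ensembl canonical transcript, with 250 bases before and 50 bases after that start, printed 5′ to 3′ on the strand of the gene. Capitals mark the core motif, ACGTG or GCGTG, on either strand. The palindrome CACGTG holds the core once on each strand and was counted as 2 matches. KDM3A lies at chr2:86441121-86441420 on the plus strand, KDM4B at chr19:4968863-4969162 on the plus strand, KDM4C at chr9:6757723-6758022 on the plus strand and KDM5B at chr1:202808372-202808671 on the minus strand.
KDM3A: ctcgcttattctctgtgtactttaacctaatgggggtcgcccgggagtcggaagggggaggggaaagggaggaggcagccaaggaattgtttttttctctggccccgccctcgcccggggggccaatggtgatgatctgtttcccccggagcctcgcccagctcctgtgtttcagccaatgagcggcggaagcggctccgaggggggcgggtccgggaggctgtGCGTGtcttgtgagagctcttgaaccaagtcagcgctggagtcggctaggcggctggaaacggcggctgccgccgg
KDM4B: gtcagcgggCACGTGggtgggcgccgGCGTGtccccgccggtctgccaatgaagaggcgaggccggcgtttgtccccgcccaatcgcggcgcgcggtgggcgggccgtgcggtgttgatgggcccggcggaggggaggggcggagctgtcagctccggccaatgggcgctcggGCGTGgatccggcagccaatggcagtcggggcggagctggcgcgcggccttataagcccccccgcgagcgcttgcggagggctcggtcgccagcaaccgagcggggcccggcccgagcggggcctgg
KDM4C: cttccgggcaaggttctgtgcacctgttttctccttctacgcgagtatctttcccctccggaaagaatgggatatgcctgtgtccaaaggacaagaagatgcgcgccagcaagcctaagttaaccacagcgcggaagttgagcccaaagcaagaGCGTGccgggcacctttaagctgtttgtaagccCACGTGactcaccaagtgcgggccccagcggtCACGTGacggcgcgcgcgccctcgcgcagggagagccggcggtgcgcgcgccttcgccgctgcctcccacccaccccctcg
KDM5B: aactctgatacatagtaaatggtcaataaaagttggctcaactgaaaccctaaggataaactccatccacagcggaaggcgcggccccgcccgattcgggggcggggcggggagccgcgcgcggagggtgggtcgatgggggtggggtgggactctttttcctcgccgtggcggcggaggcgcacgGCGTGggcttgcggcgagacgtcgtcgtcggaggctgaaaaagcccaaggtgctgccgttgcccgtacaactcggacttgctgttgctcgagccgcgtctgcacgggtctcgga

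The promoter table matched 9 of the members, and JMJD6 was not among them. KDM4C held 5 matches and KDM4B 4, including CACGTG at 2 places in KDM4C and at 1 in KDM4B, whereas KDM3A and KDM5B held 1 each. All 4 HIF targets thus had the core. Among the other 5 members in the table, KDM2A had 3 matches, KDM2B and KDM6B had 1 each, and KDM3B and JMJD1C had 0. The core is common, being present in 48.4% of all 35116 promoters of this length and in 61.2% of the 22175 promoters at least as rich in G and C as the least GC-rich member promoter (KDM2B, 53%). The 4 HIF target promoters were richer, from 62.7% (KDM4C) to 76.7% (KDM4B), and the share among promoters that rich was not counted. A match is a sequence of letters and not a measured binding site, and the absence of one in this window says nothing about binding elsewhere.

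The depth behind the levels was read from the lowest mean in the table, −5.20 log2 CPM (CPM, counts scaled to a common library size). With the 0.5 that voom adds to every count, a gene unread in all libraries takes this value at a mean library size (geometric) of 18409902 fragments. At that depth 21383 genes had at least 1 read, with a median of 1.96 log2 CPM, and 13773 averaged 10 reads or more, with a median of 4.47. Of the melanocyte lineage markers, SOX10 (5.64 log2 CPM) and MITF (4.76) were read well, MLANA (1.01) and S100B (1.48) weakly, PMEL (−1.56) and DCT (−1.81) hardly at all, and TYR had no read. The keratinocyte gene KRT5 had a mean of −3.16 and KRT14 of 2.08, the immune marker PTPRC had −3.55 and the endothelial marker PECAM1 had 0.12.

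All 10 members were expressed, with means from 4.67 to 7.66 log2 CPM, or about 470 to 3717 reads per library. Because longer transcripts collect more reads, the order of the genes and the comparison of groups are given here per length, as the log2 of CPM per kilobase of the canonical transcript, which spans 1621 to 9292 bases among the members. On that scale JMJD6 (5.32), KDM3A (5.24) and KDM2A (4.77) were highest, and KDM6B (2.48) and KDM4B (2.19) were lowest. The range was 8.78-fold and the median 3.88. Of the members, 8 lay above the median of genes with at least 10 reads (2.89 per kilobase) and 3 in the top 25% of them.

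**Figure D1:**
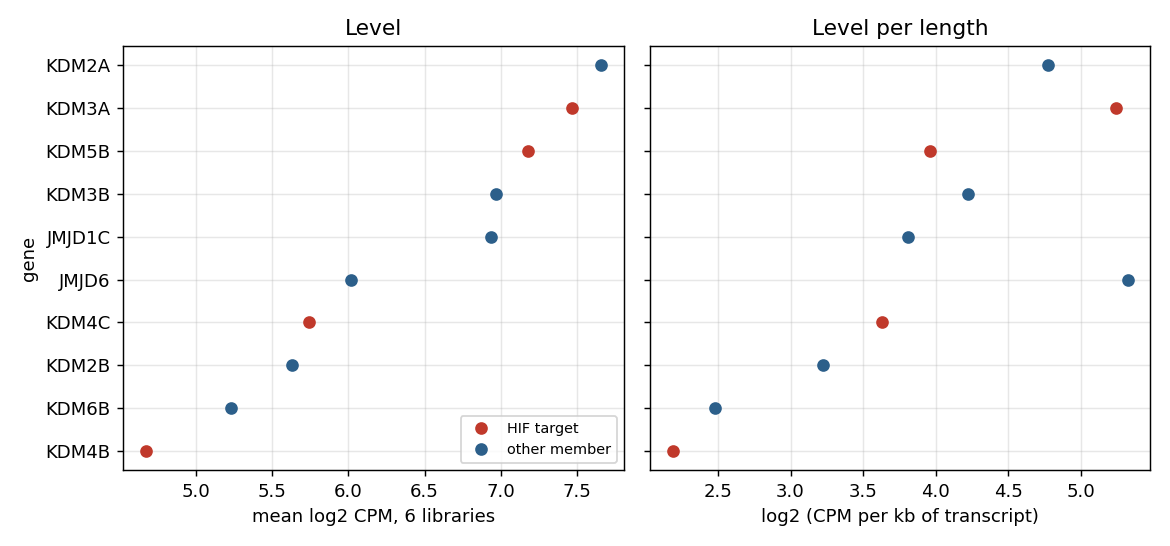
The left panel plots the mean log2 CPM over 6 libraries of each member and the right panel the log2 of CPM per kilobase of its canonical transcript. Red points are the 4 HIF targets and blue points the 6 other members, and no error bar is drawn because the spread between libraries is unknown here. The left panel reflects reads and also transcript length, with KDM2A at 7.66. Per kilobase of canonical transcript JMJD6 is highest (5.32), a place that rests on its short canonical transcript.

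The H3K36 demethylases KDM2A and KDM2B are paralogs with CXXC zinc fingers that bind unmethylated CpG DNA, and KDM2B recruits a variant Polycomb complex to CpG islands. KDM2A (chromosome 11, 67119263 to 67258082, plus strand) had a mean of 7.66 log2 CPM, which equals about 3717 reads per library. KDM2B (chromosome 12, 121429096 to 121581023, minus strand) had 5.63 log2 CPM, or 912 reads. Per kilobase the log2 levels were 4.77 for KDM2A and 3.22 for KDM2B, so KDM2A was the more abundant paralog. KDM2A shares 6.54% of its exonic bases with a long non-coding RNA gene on the opposite strand, ENSG00000287934, for which no level is given. KDM2B shares 3.22% of its exonic bases with RNF34 on the opposite strand, which had a mean of 5.80 log2 CPM. The study's methods name a directional library kit, but whether counting used the strand is not given in the sources used here.

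KDM3A, KDM3B and JMJD1C form the KDM3 group. KDM3A removes methyl groups from H3K9 and is among the best known HIF targets of the family. KDM3A (chromosome 2, 86440647 to 86492716, plus strand) had 7.46 log2 CPM, or 3251 reads. Its level per kilobase, 5.24 on the log2 scale, was above that of 90.4% of the genes with a read and a canonical length. KDM3B (chromosome 5, 138352685 to 138437028, plus strand) had 6.97 log2 CPM and 4.22 per kilobase. JMJD1C (chromosome 10, 63167221 to 63521850, minus strand) had 6.94 log2 CPM and 3.81 per kilobase, the lowest of the group. An antisense transcript, JMJD1C-AS1, shares 4.33% of the exonic bases of JMJD1C and had a mean of −4.67 log2 CPM.

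KDM4B and KDM4C act on trimethylated H3K9 and H3K36, and both are counted as HIF targets. KDM4C (chromosome 9, 6720863 to 7175648, plus strand) had 5.74 log2 CPM, or 986 reads, and 3.63 per kilobase. KDM4B (chromosome 19, 4969113 to 5153598, plus strand) had 4.67 log2 CPM, or 470 reads, and 2.19 per kilobase, the lowest of the members. KDM4B was above 59.6% of the genes with a read and a canonical length, but below the median of genes with at least 10 reads (2.89 per kilobase). Their paralog KDM4A, which is not one of the 10, had 4.27 per kilobase, and KDM4D had −0.49.

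KDM5B, which removes methyl groups from H3K4 and is known in melanoma as a marker of slow-cycling cells, is the fourth HIF target. KDM5B (chromosome 1, 202724495 to 202808487, minus strand) had 7.18 log2 CPM, or 2662 reads. It has the longest canonical transcript of the members (9292 bases), and per kilobase its level was 3.96 on the log2 scale, the fifth of the 10.

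KDM6B and JMJD6 have no close paralog among the members. KDM6B, an H3K27 demethylase known for rapid induction by stress and inflammatory signals, lies on chromosome 17 (7834217 to 7854796, plus strand). It had 5.23 log2 CPM, or 690 reads, and 2.48 per kilobase. JMJD6 (chromosome 17, 76712832 to 76726799, minus strand) had 6.02 log2 CPM, or 1193 reads. With the shortest canonical transcript of the members, 1621 bases, it ranked first per kilobase at 5.32. That rank rests on this length. An overlap of 120 bases with another gene is 2.01% of the annotated exonic bases of JMJD6, which together are thus several times longer than this transcript. How JMJD6 ranks over all its exons was not tested.

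In order of level per kilobase the members ran JMJD6, KDM3A, KDM2A, KDM3B, KDM5B, JMJD1C, KDM4C, KDM2B, KDM6B and KDM4B. The widest step between neighbours was that from KDM2B down to KDM6B, 0.74 on the log2 scale or 1.67-fold. The narrowest, from JMJD6 to KDM3A, was 0.080, and its 95% counting interval was ± 0.039. All 9 steps exceeded their counting intervals. Counting error is only the lower limit of the error, the length counted for each gene assumes that the canonical transcript is the one expressed, and whether neighbours differ beyond the spread between libraries was not tested. The first place of JMJD6 in particular rests on a canonical transcript far shorter than all its annotated exons together. For KDM2B and KDM4C the canonical transcripts, of 5315 and 4338 bases, are likewise far shorter. Overlaps of 439 and 135 bases with other genes are only 3.22% and 1.31% of their exonic bases. How their places, or the step from KDM2B to KDM6B, change over all exons was not tested.

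**Figure D2:**
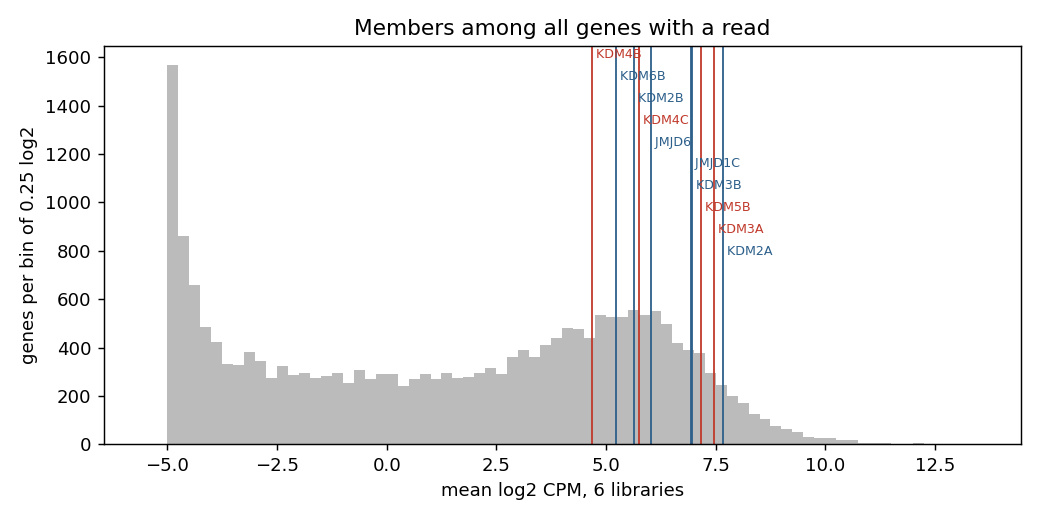
The histogram counts the 21383 genes with a read by mean log2 CPM over 6 libraries, in bins of 0.25, and each vertical line is a member (red for the 4 HIF targets, blue for the others). The 10 lines lie between 4.67 and 7.66, to the right of the median of 1.96, and show read depth rather than an order of abundance.

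The HIF targets and the other members were then set side by side per kilobase. The 4 HIF targets had a median of 3.79 on the log2 scale and ranged from 2.19 (KDM4B) to 5.24 (KDM3A), 8.31-fold. The 6 other members had a median of 4.01 and ranged from 2.48 (KDM6B) to 5.32 (JMJD6). The groups overlapped over most of their range. KDM3A stood second and KDM4B last of the 10, so the HIF targets held both a place near the top and the lowest place. With the wider reading, the 7 HIF targets had a median of 3.63 and the remaining KDM2A, KDM3B and JMJD6 a median of 4.77. These are descriptions of levels over both treatments, with no test.

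The rest of the family was described from a list of 19 further JmjC genes, all found in the table with a mean of at least 10 reads. Their median was 2.51 per kilobase on the log2 scale, against 3.88 for the members. Of the 19 genes, 7 were above the median of genes with at least 10 reads, against 8 of the 10 members. KDM5C (4.54 per kilobase), an H3K4 demethylase, and KDM4A (4.27), which acts on H3K9 and H3K36, were the highest of the 19. KDM4D (−0.49), a further H3K9 demethylase, and KDM8 (−0.042) were the lowest. HIF1AN, the asparaginyl hydroxylase that restrains HIF in the presence of oxygen and belongs to the same fold, had 3.35. The flavin-dependent demethylases KDM1A and KDM1B, which use no iron and have no JmjC domain, had 5.91 and 2.88. The members were chosen with earlier results of these data known, so their higher median is not evidence about the family.

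**Figure D3:**
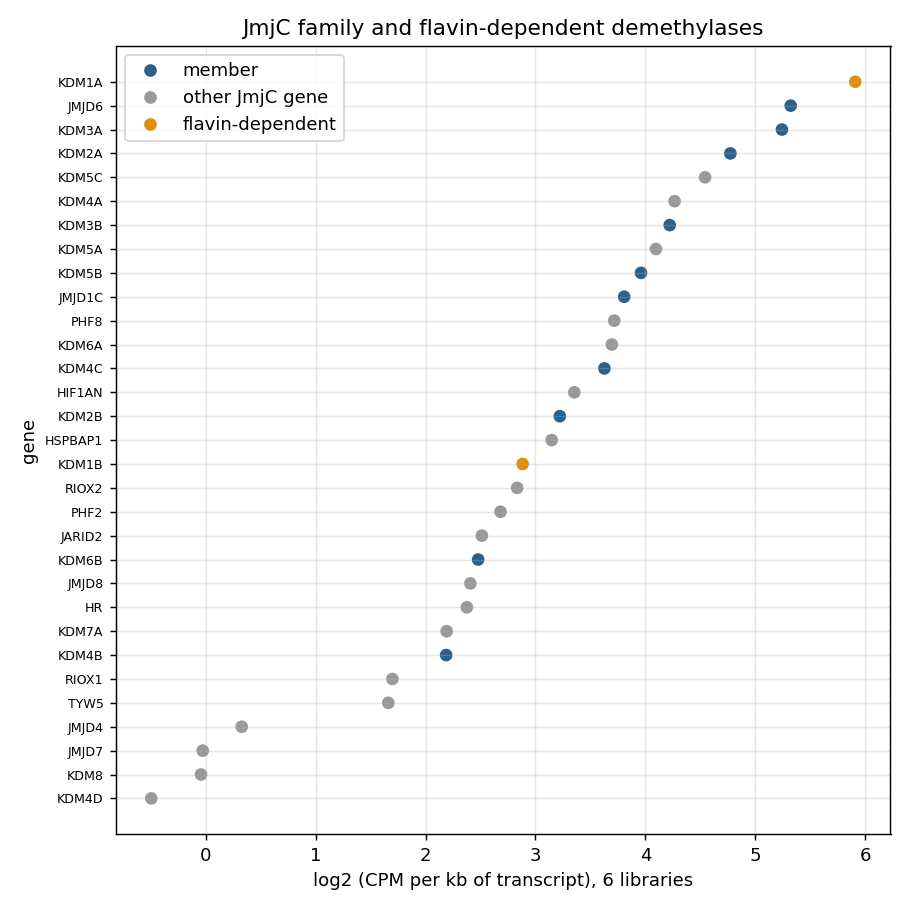
Each point is the level per kilobase of 1 gene, from its mean over 6 libraries, in blue for the 10 members, in grey for 19 other JmjC genes and in orange for the flavin-dependent KDM1A and KDM1B, from the lowest to the highest. The horizontal axis is log2 (CPM per kb of transcript), on which the members occupy 2.19 to 5.32 and the other JmjC genes extend down to −0.49.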

How the data were processed

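RNA-seq libraries of A375 cells (3 OLO and 3 OZO) were grouped by their titles. According to the study's methods and the submitters' processing notes, the authors aligned reads to hg38 with HISAT2 2.1.0, counted them with featureCounts 2.1.1 and ran limma-voom 3.58.1. Scaling factors, filters and whether counting used the strand are not given in the sources used here. The deposited table gives, for each gene, the mean log2 CPM over all libraries, which is the only measurement used. Its other columns hold the authors' own comparison of treated with control (fold change, moderated t, p-value, adjusted p-value and log-odds) and were not used, so no test was run.

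The library size and reads per gene were derived from that mean and voom's offset of 0.5. A simulation of this step was built from the same formulas, so it checks the arithmetic only and cannot show that the depth is right. The reads are geometric means. Counting intervals (95%, normal approximation) take 6 times that mean as the total and cover counting error only. Levels per kilobase used the Ensembl canonical transcript of GENCODE 44 (GRCh38, the assembly of hg38), which also gave coordinates counted from 1, and all 10 members matched. Percentiles are shares of genes with a lower mean. Python 3.11.15, numpy 2.4.6 and pandas 2.3.3 were used. All 10 members are named whatever their values, with the highest and lowest 2 of the further family list by level per kilobase, a scale chosen with the data in view, since the plan named mean log2 CPM. HIF1AN was added after their values were seen. Members and lists were chosen with earlier results of these data known.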

Additional observations from a re-analysis of the deposited data

How the results depend on the processing

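On the planned scale of log2 CPM, which is not corrected for transcript length, all 10 members lay above the median gene among genes with a read, genes with at least 10 reads and all listed genes, and per kilobase 10 did among genes with a read and 8 among genes with at least 10 reads. The median of the HIF targets minus that of the other members was −0.018 on that scale. It was −1.23 on the same scale with the wider reading of 7 HIF targets, −0.22 per kilobase, and −1.15 per kilobase with the wider reading, so its size depends on which genes are counted as HIF targets. Levels per kilobase used GENCODE lengths, chosen after the data were seen, because RefSeq transcript lengths were not used here. No paired analysis was possible because single libraries were not analysed here. Other normalizations, edgeR, DESeq2, other filters and thresholds, centring and leaving out each library were likewise not run, and how far a single library decides a level is unknown.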
